A study of Homo sapiens with 29 samples.

Results

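The transcripts of 10 secreted growth factors were followed in IMR90 ER:RAS cells: VEGFA, VEGFC and PGF of the vascular endothelial growth factor (VEGF) family, the platelet-derived growth factor PDGFA, the fibroblast growth factors FGF2 and FGF7, the hepatocyte growth factor HGF, the angiopoietin ANGPT1, the angiopoietin-like ANGPTL4 and the endothelin precursor EDN1. They were chosen by name as factors that act on blood vessels, epithelium or mesenchyme, with earlier results of these data known. All 10 had a line of counts among the 28266 genes measured. IMR90 ER:RAS is an established line of human lung fibroblasts infected with a retrovirus that carries oncogenic RAS fused to the estrogen receptor. The fusion is switched on by 4-hydroxytamoxifen (4OHT), which drives the cells into oncogene-induced senescence, a stable growth arrest with a secretory phenotype, and every group carried the construct. Poly(A) RNA sequencing counts were analysed for 18 libraries in 3 groups of 6. DMSO_siNT held cells given the solvent DMSO and non-targeting siRNA, and 4OHT_siNT held cells given 4OHT and non-targeting siRNA. 4OHT_siSMARCA4 held cells given 4OHT and siRNA against SMARCA4, an ATPase of the SWI/SNF chromatin remodelling complex. The methods of the paper give day 7 for siRNA-transfected cells that were fixed for staining, and their RNA sections give no day. Day 7 was taken for these libraries.

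Each arm used 2 siRNAs numbered 2 and 4, with 3 libraries each, and the labels add a set name of a number with V or VM, whose meaning is not stated. V and VM sets were not balanced: DMSO_siNT was split evenly between them, and 4OHT_siNT came from VM sets alone. 4OHT_siSMARCA4 was made up of 3 libraries from V sets, 2 from VM sets and 1 with a name that fits no sample title. Contrasts with 4OHT_siNT were therefore also fitted on VM sets, and no such check was possible on V sets. The column that fits no title is named siSMARCA4_2 1VM, a set that no title with this siRNA has. It was counted with neither V nor VM, and is called the library with no set label. Total counts per library ranged from 9657309 to 18039313, and levels below are CPM, that is, counts scaled by the TMM-adjusted size of the library. The DMSO_siNT library with siNT 4 of set 2V stood apart from the rest: on the second principal component of log2 CPM it was at 98.1, with the other 17 libraries between −35.7 and 22.6, and it had the lowest total count and 17915 genes with a count, more than any other library. Without it, the number of growth factors called was 8 for 4OHT_siNT over DMSO_siNT, 5 for 4OHT_siSMARCA4 over 4OHT_siNT and 9 for 4OHT_siSMARCA4 over DMSO_siNT, in place of 8, 2 and 8. Over all genes tested, 7734, 3269 and 7850 were called without it in the same order, in place of 6935, 1397 and 6635. SMARCA4 itself was at 275 to 330 CPM in 4OHT_siNT and at 70.4 to 141 CPM in 4OHT_siSMARCA4, a 3.04-fold lower level (edgeR adjusted p = 1.3e-06), and it was at 189 to 232 CPM in DMSO_siNT. Within 4OHT_siSMARCA4 it was at 92.7 to 141 CPM in the V libraries and at 70.4 to 87.0 CPM in the VM libraries. Of 8 fibroblast markers all were detected in each group, with a summed level of 11448 to 31306 CPM in DMSO_siNT, 14920 to 19815 CPM in 4OHT_siNT and 8627 to 12575 CPM in 4OHT_siSMARCA4. The summed level of 7 endothelial markers was 1.64 to 3.36 CPM in DMSO_siNT, 5.03 to 9.62 CPM in 4OHT_siNT and 2.51 to 10.04 CPM in 4OHT_siSMARCA4, with ERG at 0 in 4OHT_siNT and EMCN at 0 in 4OHT_siSMARCA4. Of the 7, VWF, TIE1 and CLDN5 were tested, and all 3 were called higher with 4OHT, beside 23.9% of all genes. Their means were 1.51, 0.644 and 0.212 CPM in DMSO_siNT and 3.54, 2.31 and 0.813 CPM in 4OHT_siNT. Over DMSO_siNT, 2 of the 3 were higher in 4OHT_siSMARCA4, beside 23.3% of all genes. Summed levels of 5 epithelial markers reached at most 11.4 CPM (KRT5 at 0 in all libraries, CLDN4 at up to 9.97 CPM) and those of 5 leukocyte markers at most 1.57 CPM (MS4A1 at 0). The labels do not say that libraries of a group came from separate cultures, so p-values measure the spread between these libraries, which may be technical. In bulk RNA, fewer expressing cells and less RNA per cell cannot be told apart.

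VEGF ligands bind receptor tyrosine kinases on endothelium. VEGFA drives sprouting of blood vessels, VEGFC mainly that of lymphatic vessels, and PGF binds FLT1. Angiopoietin 1 activates TIE2 and stabilises vessels, endothelin 1 is a vasoconstrictor peptide, and ANGPTL4 inhibits lipoprotein lipase. FGF2, FGF7, HGF and PDGFA signal between mesenchyme and neighbouring cells: FGF7 and HGF come from fibroblasts and act on epithelium, whereas PDGFA and FGF2 also act on fibroblasts themselves. Many of these factors are part of the senescence-associated secretory phenotype.

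Stretches before the transcription start are shown for FGF2, ANGPTL4, FGF7 and EDN1. Of the 10, ANGPTL4 had the largest difference with 4OHT and FGF2 the largest with SMARCA4 knockdown, and FGF7 and EDN1 were lower with 4OHT. On GRCh38, GENCODE v44 places FGF2 at chr4:122826682-122898236, ANGPTL4 at chr19:8363289-8374370, FGF7 at chr15:49423237-49488775 and EDN1 at chr6:12290361-12297194, all on the plus strand. On the minus strand are VEGFC at chr4:176683538-176792922, PDGFA at chr7:497258-520296, HGF at chr7:81699010-81770438 and PGF at chr14:74941834-74955626. The sequences are from RefSeq on GRCh38.p14, whose promoter table matched 8 of the 10 genes by symbol, with VEGFA and ANGPT1 absent from it. Each run is the part of the 250 bases before the RefSeq start that holds no GENCODE v44 exon of the gene, written 5′ to 3′ on the gene's strand. Capitals mark matches on either strand to 4 motifs that were searched: TGANTCA for AP-1, ACGTG for the core of a hypoxia response element, a PPAR element of 2 copies of AGGTCA with 1 base between them, and GGGCGG for a GC box. The runs are chr4:122826581-122826681 for FGF2, chr19:8363905-8364154 for ANGPTL4, chr15:49422992-49423236 for FGF7 and chr6:12290111-12290360 for EDN1 (the nearest of its 3 starts to the GENCODE start), all on the plus strand.
FGF2: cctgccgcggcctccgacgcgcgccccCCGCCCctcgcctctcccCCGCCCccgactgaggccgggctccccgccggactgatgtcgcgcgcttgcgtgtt
ANGPTL4: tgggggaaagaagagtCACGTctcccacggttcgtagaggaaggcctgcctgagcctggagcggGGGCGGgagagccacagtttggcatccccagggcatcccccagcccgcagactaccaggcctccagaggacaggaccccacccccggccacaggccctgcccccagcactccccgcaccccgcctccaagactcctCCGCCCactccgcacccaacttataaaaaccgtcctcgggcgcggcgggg
FGF7: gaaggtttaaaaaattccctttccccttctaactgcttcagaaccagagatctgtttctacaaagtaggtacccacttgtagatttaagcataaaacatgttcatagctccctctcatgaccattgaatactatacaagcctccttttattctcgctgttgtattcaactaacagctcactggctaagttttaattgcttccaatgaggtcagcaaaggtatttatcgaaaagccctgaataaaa
EDN1: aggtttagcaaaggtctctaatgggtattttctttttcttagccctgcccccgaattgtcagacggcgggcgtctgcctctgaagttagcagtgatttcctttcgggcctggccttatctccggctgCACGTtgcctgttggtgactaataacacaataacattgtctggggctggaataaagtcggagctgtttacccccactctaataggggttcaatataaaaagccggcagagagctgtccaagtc
The FGF2 run held 2 GC boxes, the ANGPTL4 run 2 GC boxes and 1 ACGTG, the EDN1 run 1 ACGTG, and the FGF7 run matched none of the motifs. Over the 35116 promoters of the table, 42.6% held a GC box in the same 250 bases, 18.5% held ACGTG, 6.57% held TGANTCA and 0.0171% held the PPAR element. Neither TGANTCA nor the PPAR element was found in the members' windows of 250 bases. A match is a string of letters and shows no binding.

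Levels differed widely among the growth factors. Per kilobase of merged GENCODE v44 exons, the 4OHT_siNT group had ANGPTL4 highest at 145 ± 5.84 CPM per kb (SD, n = 6), VEGFC next at 38.8 ± 4.98, then FGF2 at 26.7 ± 2.43, VEGFA at 19.7 ± 3.57 and HGF at 13.8 ± 2.02. EDN1 followed at 5.003 ± 2.45 CPM per kb, then FGF7 at 1.63 ± 0.31, ANGPT1 at 1.28 ± 0.38, PDGFA at 1.07 ± 0.29 and PGF at 0.269 ± 0.052. The ranges of FGF2 and VEGFA overlapped in that order, as did those of VEGFA and HGF, FGF7 and ANGPT1, and ANGPT1 and PDGFA. Ranges over the libraries were set side by side, and genes were not compared within each library. In DMSO_siNT the order was another one: VEGFC led at 35.6 ± 11.4 CPM per kb and ANGPTL4 had 19.9 ± 7.30, EDN1 had 14.0 ± 3.01, FGF2 14.0 ± 2.51, and VEGFA was eighth of the 10 at 4.28 ± 0.53. There each of the first 7 overlapped in range with the next. In 4OHT_siSMARCA4 FGF2 stood second at 71.6 ± 7.69 CPM per kb, between ANGPTL4 at 201 ± 27.7 and VEGFC at 52.7 ± 4.93, and these ranges did not overlap. PGF was the lowest in each group, with only 5 to 27 counts per library. Merged exons hold the bases of all annotated transcripts of a gene, 14.4 kb for VEGFA and 2.615 kb for VEGFC. The order per kilobase depends on these lengths. Without the division, VEGFA in 4OHT_siNT had a mean of 284 CPM, above FGF2 at 182, HGF at 135 and VEGFC at 102 CPM.

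**Figure D1:**
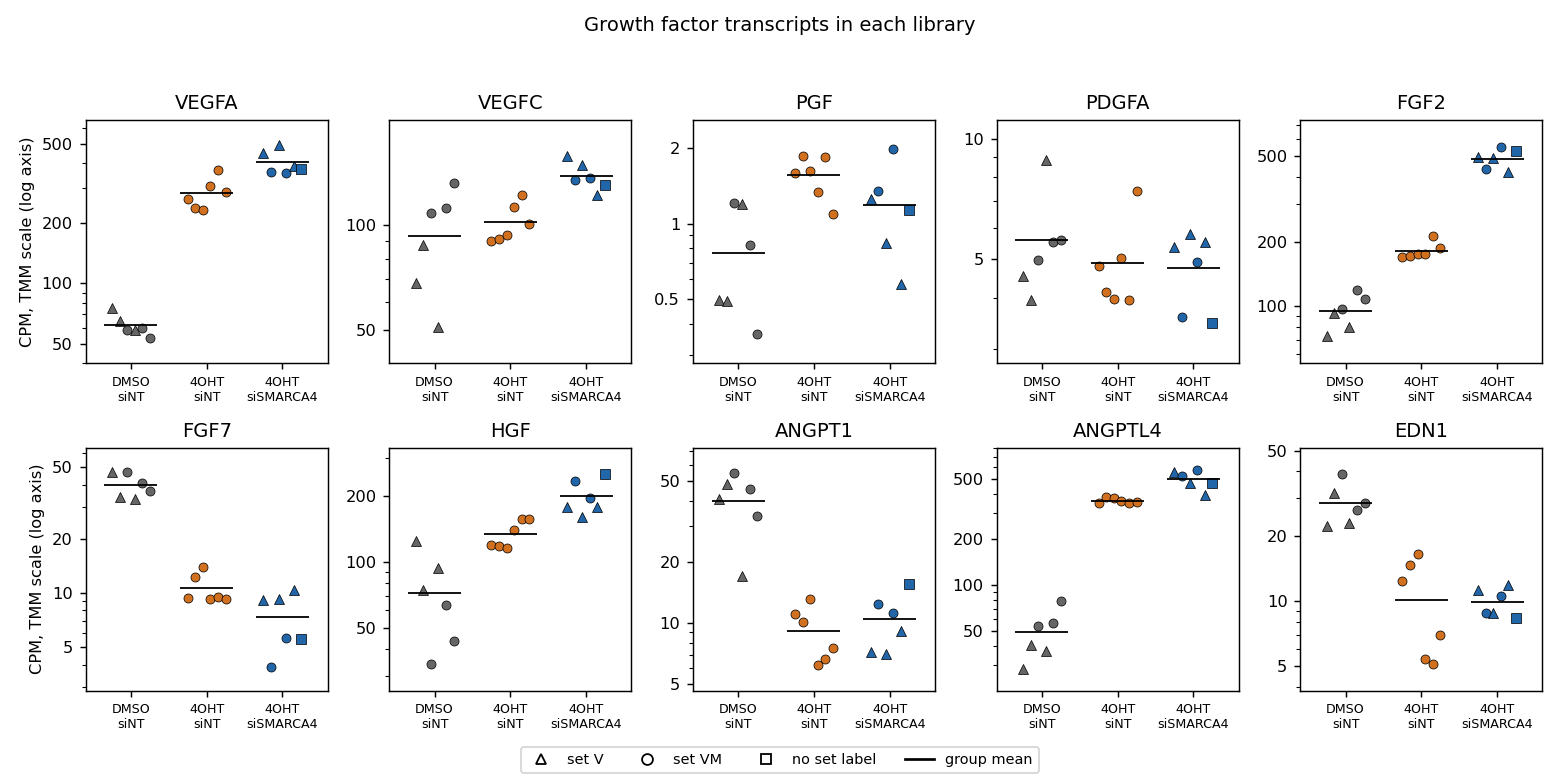
CPM on the TMM scale (log axes, which differ between panels) of the 10 growth factors in each of the 18 libraries, with triangles for V sets, circles for VM sets, a square for the library with no set label and a line at the group mean. FGF2 stands at 3 separate levels in the 3 groups, whereas VEGFA and ANGPTL4 take their largest step from DMSO_siNT to 4OHT_siNT and FGF7, ANGPT1 and EDN1 fall there.

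The first comparison asked how the factors differed between 4OHT-treated and DMSO-treated cells, both with non-targeting siRNA. With 4OHT, 5 of the 10 growth factors were higher (VEGFA, PGF, FGF2, HGF and ANGPTL4), 3 were lower (FGF7, ANGPT1 and EDN1), and VEGFC and PDGFA did not pass the test. Over all 13136 genes tested, 52.8% were called at an edgeR adjusted p under 0.05, 23.9% higher and 28.9% lower, so the members' 80% stands beside a background in which most genes were called. The median log2 fold change of the 10 was 0.51, against −0.05 over all genes tested.

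VEGFA was at 53.6 to 75.7 CPM (median 59.2) in DMSO_siNT and at 233 to 371 CPM (median 276) in 4OHT_siNT. The lowest 4OHT library was above the highest DMSO library, and the level was 4.60-fold higher (log2 fold change 2.20 ± 0.13 SE, edgeR adjusted p = 6.33e-11). Groups that did not overlap in this way were found for 33.8% of all genes tested. VEGFC, in contrast, was at 51.04 to 131 CPM in DMSO_siNT and at 89.6 to 122 CPM in 4OHT_siNT, and its log2 fold change was 0.12 with a 95% interval of −0.23 to 0.48 (edgeR adjusted p = 0.557). The DMSO libraries were spread by set: the 3 V libraries had a mean of 68.9 CPM and the 3 VM libraries 117 CPM, and within VM sets the log2 fold change of VEGFC was −0.21. PGF rose from 0.364 to 1.21 CPM (median 0.660) in DMSO_siNT to 1.09 to 1.87 CPM (median 1.61) in 4OHT_siNT, a 2.07-fold difference with overlapping groups (log2 fold change 1.05 ± 0.31, edgeR adjusted p = 0.00847). With V or VM as a covariate the log2 fold change of PGF was 0.81 and no longer called (edgeR adjusted p = 0.0658), and with siNT 4 alone it was 0.92 and not called (edgeR adjusted p = 0.133).

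FGF2 and FGF7 moved in opposite directions. FGF2, a growth factor for fibroblasts and endothelium, was at 72.4 to 119 CPM (median 95.4) in DMSO_siNT and at 169 to 213 CPM (median 175) in 4OHT_siNT. Every 4OHT library was above every DMSO library, and the difference was 1.91-fold (log2 fold change 0.94 ± 0.12, edgeR adjusted p = 1.84e-06). FGF7, a keratinocyte growth factor made by mesenchyme, was at 33.2 to 47.2 CPM (median 38.6) in DMSO_siNT and at 9.28 to 14.0 CPM (median 9.402) in 4OHT_siNT. Here the 4OHT libraries were all below the DMSO libraries, by 3.75-fold (log2 fold change −1.91 ± 0.20, edgeR adjusted p = 1.41e-07). Its copies FGF7P3 and FGF7P6 had at most 0.522 CPM in any library, so reads assigned to them were few beside those of FGF7. HGF, the ligand of MET, was at 34.2 to 124 CPM (median 69.0) in DMSO_siNT and at 116 to 158 CPM (median 130) in 4OHT_siNT. One DMSO library, siNT 2 of set 1V at 124 CPM, lay within the 4OHT range, and the difference was 1.87-fold (log2 fold change 0.90 ± 0.23, edgeR adjusted p = 0.00303). The DMSO libraries of V sets had a mean HGF of 97.6 CPM and those of VM sets 47.0 CPM, and within VM sets the log2 fold change was 1.52. With siNT 2 libraries alone as controls it was 0.61 and not called (edgeR adjusted p = 0.111). PDGFA was at 3.95 to 8.84 CPM in DMSO_siNT and at 3.96 to 7.42 CPM in 4OHT_siNT, with a log2 fold change of −0.18 and an interval of −0.61 to 0.25.

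Among the vessel-acting factors outside the VEGF family, ANGPTL4 had the largest difference of the 10. It was at 28.4 to 79.1 CPM (median 47.4) in DMSO_siNT and at 346 to 382 CPM (median 355) in 4OHT_siNT. The groups were far apart, with a 7.28-fold higher level in 4OHT_siNT (log2 fold change 2.86 ± 0.19, edgeR adjusted p = 2.87e-10). ANGPT1 was at 17.1 to 54.6 CPM (median 43.3) in DMSO_siNT and at 6.23 to 13.1 CPM (median 8.84) in 4OHT_siNT. The DMSO library nearest to the 4OHT libraries was siNT 4 of set 2V at 17.1 CPM, and the level was 4.396-fold lower with 4OHT (log2 fold change −2.14 ± 0.26, edgeR adjusted p = 1.28e-06). EDN1 was at 22.3 to 38.8 CPM (median 27.6) in DMSO_siNT and at 5.12 to 16.6 CPM (median 9.67) in 4OHT_siNT. It was 2.80-fold lower with no overlap (log2 fold change −1.49 ± 0.25, edgeR adjusted p = 6.07e-05), although the 4OHT libraries themselves fell into a higher and a lower trio by siRNA.

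**Figure D2:**
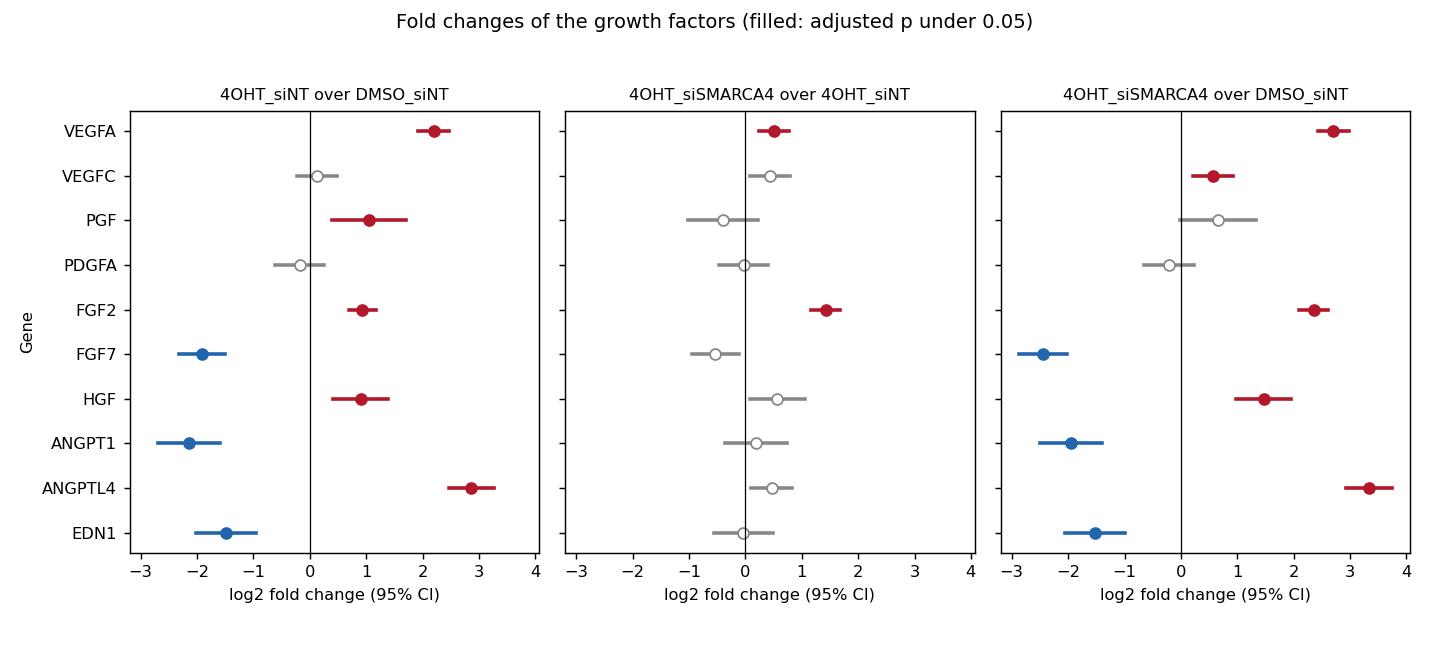
Log2 fold changes (horizontal axis) of the 10 growth factors in the 3 contrasts, with 95% confidence intervals from the edgeR quasi-likelihood fit, filled where the adjusted p was under 0.05 (red higher, blue lower). In the middle panel, FGF2 at 1.42 and VEGFA at 0.51 are the filled points, and the other intervals lie nearer to or across 0.

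The second comparison asked what SMARCA4 knockdown changed in 4OHT-treated cells. No group held DMSO-treated cells with siRNA against SMARCA4, so the same question could not be asked in growing cells. FGF2 and VEGFA were higher with knockdown, 2 of the 10, and none was lower at an adjusted p under 0.05. Among all genes tested 10.6% were called in this contrast, 4.99% higher and 5.65% lower, and the median log2 fold change was 0.31 over the 10 and 0.01 over all genes. At an unadjusted p under 0.05 there were 6 of the 10, beside 3244 of the 13136 genes. These were FGF2, VEGFA, VEGFC, HGF and ANGPTL4, with higher values, and FGF7, with lower values. The contrast uses the same 4OHT_siNT libraries as the first one, with the opposite sign, so the members' values in both are given side by side and not related to each other.

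FGF2 was at 169 to 213 CPM (median 175) in 4OHT_siNT and at 420 to 554 CPM (median 491) in 4OHT_siSMARCA4. Each knockdown library was above each control library, and the level was 2.68-fold higher (log2 fold change 1.42 ± 0.12, edgeR adjusted p = 7.65e-07). Groups did not overlap for 11.4% of all genes tested in this contrast. The rise was present with both siRNAs, by 1.503 ± 0.17 on the log2 scale for siSMARCA4_2 over siNT 2 (edgeR adjusted p = 6.5e-05) and by 1.33 ± 0.17 for siSMARCA4_4 over siNT 4 (edgeR adjusted p = 0.000772). Within VM sets the log2 fold change was 1.43, and the V libraries of 4OHT_siSMARCA4 had a mean of 468 CPM beside 494 CPM in the VM libraries. Exons of NUDT6, which lies on the other strand, cover 11.8% of the FGF2 exon bases, and the use of strand in the counting is not given. NUDT6 was at 1.41 to 8.37 CPM over the libraries, and its log2 fold change with knockdown was 0.61 (edgeR adjusted p = 0.181).

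VEGFA was at 233 to 371 CPM (median 276) in 4OHT_siNT and at 356 to 491 CPM (median 381) in 4OHT_siSMARCA4. One control library, siNT 4 of set 2VM at 371 CPM, was above the 2 lowest knockdown libraries, and the difference was 1.42-fold (log2 fold change 0.51 ± 0.12, edgeR adjusted p = 0.0132). The 2 lowest were the knockdown libraries of VM sets, at 356 and 361 CPM, and the V libraries reached 388 to 491 CPM. Within VM sets the log2 fold change was 0.32 and not called (edgeR adjusted p = 0.138), and adding the library with no set label gave 0.34 (edgeR adjusted p = 0.0466). With V or VM as a covariate, VEGFA had 0.36 and was not called (edgeR adjusted p = 0.1504).

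VEGFC was at 89.6 to 122 CPM (median 97.1) in 4OHT_siNT and at 121 to 157 CPM (median 135) in 4OHT_siSMARCA4. Only the highest control library and the lowest knockdown library crossed, and its log2 fold change of 0.44 ± 0.17 did not pass the test over all libraries (edgeR adjusted p = 0.108), whereas the VM sets alone gave 0.40, which was called (edgeR adjusted p = 0.0386). ANGPTL4 went from 346 to 382 CPM (median 355) to 389 to 575 CPM (median 496). These groups did not overlap, yet the log2 fold change of 0.47 ± 0.18 was not called (edgeR adjusted p = 0.103). On VM sets alone ANGPTL4 had 0.59 (edgeR adjusted p = 0.00354). HGF went from 116 to 158 CPM (median 130) to 161 to 252 CPM (median 187), again without overlap, and its log2 fold change of 0.57 ± 0.23 was not called (edgeR adjusted p = 0.125). Within VM sets HGF had 0.66 (edgeR adjusted p = 0.0182). For VEGFC, ANGPTL4 and HGF the DMSO_siNT libraries, which enter the common estimate of spread, varied by 32.2%, 36.6% and 46.0% of the mean. The same values were 12.8%, 4.02% and 14.6% in 4OHT_siNT and 9.34%, 13.8% and 17.9% in 4OHT_siSMARCA4. In a fit of the 2 groups of this contrast alone, without DMSO_siNT, 5 growth factors and 3405 genes were called, in place of 2 and 1397. With only the DMSO_siNT library with siNT 4 of set 2V left out, VEGFC and ANGPTL4 were called (edgeR adjusted p = 0.0171 and 0.0416). HGF was not called in that fit (edgeR adjusted p = 0.0591). Whether the spread or another property of the DMSO_siNT libraries changed these calls was not tested.

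FGF7 was at 9.28 to 14.0 CPM (median 9.402) in 4OHT_siNT and at 3.90 to 10.4 CPM (median 7.38) in 4OHT_siSMARCA4. The 3 knockdown libraries of V sets, at 9.14 to 10.4 CPM, were level with the controls, and the 2 VM libraries and the library with no set label, at 3.90 to 5.62 CPM, were below them all. The log2 fold change was −0.53 ± 0.20 over all libraries (edgeR adjusted p = 0.0988) and −1.18 within VM sets (edgeR adjusted p = 0.00138). SMARCA4 was lower in the VM than in the V libraries of that group, as given above, and its part in the FGF7 values was not tested. PGF had a log2 fold change of −0.40 (interval −1.02 to 0.22), ANGPT1 0.19 (−0.36 to 0.73) and PDGFA −0.03 (−0.47 to 0.40), and changes within these intervals are not excluded. Within VM sets the PGF value was 0.07, with the opposite sign.

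EDN1 depended on the siRNA number of the controls. In 4OHT_siNT it was at 12.4, 14.7 and 16.6 CPM with siNT 2 and at 5.42, 5.12 and 6.95 CPM with siNT 4. The siRNAs did not overlap, and the difference of 1.32 ± 0.21 on the log2 scale was called (edgeR adjusted p = 0.0284), where 0.0732% of 13659 genes were called between these control siRNAs. Of the 10 growth factors EDN1 was the one called in that comparison. With knockdown it was at 11.3, 8.84 and 8.32 CPM with siSMARCA4_2 and at 8.81, 10.6 and 11.9 CPM with siSMARCA4_4, so the knockdown libraries lay between the 2 sets of controls. The log2 difference was −0.61 ± 0.21 for siSMARCA4_2 over siNT 2 (edgeR adjusted p = 0.0821) and 0.82 ± 0.21 for siSMARCA4_4 over siNT 4 (edgeR adjusted p = 0.0499). The contrast over all libraries was −0.03 with an interval of −0.56 to 0.50, between these values of opposite sign. The difference between the siRNA numbers was −1.43 ± 0.30, which edgeR did not call (adjusted p = 0.123, with 0.0146% of genes called) and DESeq2 did (adjusted p = 0.00481). An siNT and a siSMARCA4 siRNA of the same number share no target, so pairing them by number is arbitrary. EDN1 differed by 1.32 between the control siRNAs, as given above, and by −0.12 ± 0.21 between siSMARCA4_2 and siSMARCA4_4. In DMSO-treated cells 0 of the 10 growth factors were called between siNT 2 and siNT 4 by edgeR or DESeq2, beside 0.0512% of genes, and 1 had an unadjusted p under 0.05. Between siSMARCA4_2 and siSMARCA4_4 0 of the 10 were called by either tool, beside 0.00732% of genes, and 0 had an unadjusted p under 0.05.

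Between siSMARCA4_2 and siNT 2 a total of 3 growth factors were called by edgeR: VEGFA at 0.69 ± 0.15 (adjusted p = 0.0105), FGF2, and FGF7 at −0.93 ± 0.27 (adjusted p = 0.0419), where 7.67% of genes were called. Between siSMARCA4_4 and siNT 4 there were 2, FGF2 and EDN1, where 2.71% of genes were called. There VEGFA had 0.34 ± 0.15 (edgeR adjusted p = 0.253) and FGF7 −0.16 ± 0.26. The tests of the difference between siRNA numbers gave adjusted p-values of 0.808 for VEGFA and 0.708 for FGF7 by edgeR, so neither was shown to depend on the siRNA. VEGFA control libraries with siNT 2 were at 233 to 264 CPM and those with siNT 4 at 287 to 371 CPM, without overlap, and the difference of −0.40 ± 0.15 was not called (edgeR adjusted p = 0.341). Between siSMARCA4_2 and siSMARCA4_4 VEGFA differed by −0.05 ± 0.15 (edgeR adjusted p = 0.980).

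**Figure D3:**
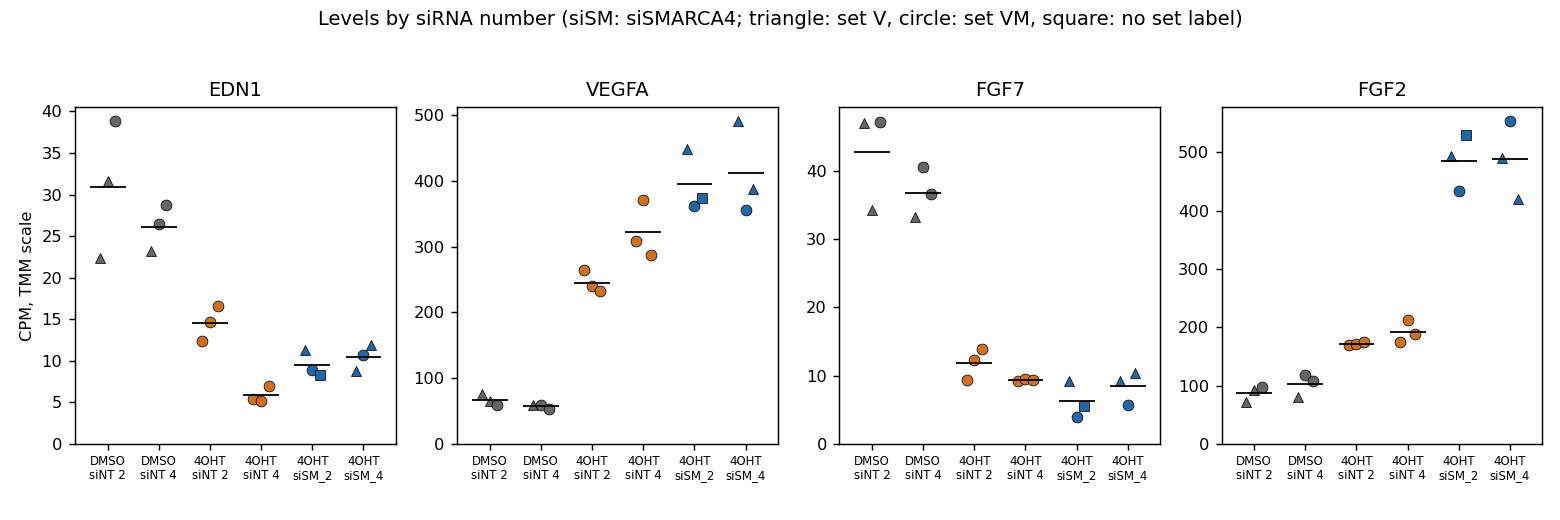
CPM on the TMM scale (linear axes from 0) of EDN1, VEGFA, FGF7 and FGF2 by treatment and siRNA number, 3 libraries per column, with a line at the mean. EDN1 controls with 4OHT split by siRNA into 12.4 to 16.6 and 5.12 to 6.95 CPM with the knockdown libraries in between, whereas FGF2 is at 420 to 554 CPM with either SMARCA4 siRNA.

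The third comparison set the knockdown cells against DMSO_siNT. The growth factors that were higher numbered 5 (VEGFA, VEGFC, FGF2, HGF and ANGPTL4) and those that were lower 3 (FGF7, ANGPT1 and EDN1), where 23.3% of all genes were called higher and 27.3% lower, 50.5% in all. ANGPTL4 was 10.1-fold, VEGFA 6.52-fold, FGF2 5.12-fold and HGF 2.77-fold higher, each without overlap, which 29.6% of genes showed. FGF7 was 5.43-fold, ANGPT1 3.86-fold and EDN1 2.87-fold lower, also without overlap. VEGFC was 1.48-fold higher with overlapping groups (edgeR adjusted p = 0.00929). Its log2 fold change was 1.05 within V sets and 0.19 within VM sets (edgeR adjusted p = 0.0284 and 0.309), so the VEGFC call did not hold within the VM sets. Nor did it with siNT 4 alone (0.49, edgeR adjusted p = 0.0947) or siSMARCA4_4 alone (0.56, edgeR adjusted p = 0.0609), and it was lost in 6 of 17 other settings in all. PGF (0.65, interval −0.02 to 1.32) and PDGFA (−0.21, interval −0.65 to 0.22) did not pass. Of the called members other than VEGFC, all 7 were called both within V sets and within VM sets, where 2732 and 5979 of all genes tested were called.

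Other genes of the same signalling systems were taken from lists of names, also chosen with earlier results of these data known. The share of tested genes called with 4OHT was 50% for the further ligands, 38.5% for the receptors, 75% for the processing genes and inhibitors, 83.3% for the hypoxia list and 44.4% for the PPAR list, beside 52.8% of all genes. With knockdown the shares were 10%, 15.4%, 41.7%, 8.33% and 22.2% in the same order, beside 10.6% of all genes. Of 18 further ligands, 10 were tested. With 4OHT 1 was higher and 4 were lower, with a list median of −0.48. The angiopoietin ANGPT2, an antagonist of ANGPT1 in many settings, had 0 to 0.428 CPM in DMSO_siNT and 3.26 to 8.67 CPM in 4OHT_siNT (edgeR adjusted p = 9.84e-09), opposite to ANGPT1. FGF1 fell from a mean of 18.7 to 2.65 CPM and PDGFD from 9.79 to 1.62 CPM, and FGF5 had a log2 fold change of −1.28. With knockdown FGF1 was the single further ligand called, at −0.64 (edgeR adjusted p = 0.0295), while ANGPT2 stayed at 3.38 to 7.97 CPM with a log2 fold change of −0.02.

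Receptors for these ligands were measured in the fibroblasts themselves. Of 16 receptors and coreceptors 13 were tested, and KDR and FLT4, the main VEGF receptors of endothelium, and FGFR2, which holds the FGF7-binding isoform, were not: none exceeded 0.778 CPM in any library. With 4OHT the receptors FLT1, NRP2 and TIE1 were higher and MET and PDGFRB lower, with a list median of −0.16. FLT1, which binds VEGFA and PGF, went from 5.38 to 19.99 CPM in DMSO_siNT to 39.5 to 66.7 CPM in 4OHT_siNT (log2 fold change 2.25, edgeR adjusted p = 8.07e-05). MET, the HGF receptor, fell from 28.2 to 52.4 CPM to 8.03 to 10.3 CPM (log2 fold change −2.11, edgeR adjusted p = 1.11e-09), while its ligand HGF rose. With knockdown PDGFRB was lower, from a mean of 131 to 55.5 CPM (log2 fold change −1.24, edgeR adjusted p = 0.00117), FGFR3 was higher at 0.88 (edgeR adjusted p = 0.0363) but at no more than 1.30 CPM, and the list median was −0.20.

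Among 12 tested genes that process, carry or inhibit the factors, 4 were higher and 5 lower with 4OHT (median −0.14). CCBE1, which is needed for the processing of VEGFC, fell from a mean of 60.2 to 5.69 CPM (edgeR adjusted p = 1.16e-12), and its partner protease ADAMTS3 rose by 2.13 on the log2 scale. SFRP1, a secreted Wnt antagonist, and THBS1, an inhibitor of angiogenesis, fell by 2.40 and 1.48, and the angiogenesis inhibitor VASH1 rose by 1.64. With knockdown 1 was higher and 4 were lower (median −0.53). The inhibitors SERPINF1 and THBS2 fell, SERPINF1 from 30.9 to 38.9 CPM to 5.36 to 13.5 CPM (log2 fold change −1.78, edgeR adjusted p = 6.5e-05) and THBS2 from 37.03 to 65.5 CPM to 16.1 to 29.8 CPM (−1.17, edgeR adjusted p = 0.000447). SFRP1 had −1.07, ADAMTS3 −1.15 and CCBE1 0.77, all called. Fibroblast markers moved in the same contrast: 6 of the 8 were lower, beside 5.65% of all genes, among them COL1A1 at −1.42, COL1A2 at −1.46 and THY1 at −1.12. With 4OHT 5 of the 8 were lower, beside 28.9% of all genes, among them DCN at −5.17 and COL1A2 at −1.52, and in knockdown cells over DMSO_siNT 7 of the 8 were lower, beside 27.3%. None of the 8 was higher in the 3 contrasts, and their part in the differences of the growth factors was not tested.

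VEGFA and ANGPTL4 are known targets of hypoxia-inducible factors, and ANGPTL4 also of PPAR factors. Of 12 tested genes of the hypoxia-inducible factors and their targets, 7 were higher and 3 lower with 4OHT (median 0.46), among them NDRG1 at 1.37, PFKFB4 at 1.55 and PFKFB3 at 1.15, with PDK1 at −1.11. With knockdown 1 was called, PFKFB4 at −0.58 (edgeR adjusted p = 0.0408), and the median was 0.02. Of 9 tested PPAR genes and targets 1 was higher and 3 lower with 4OHT, PPARG itself at −2.84 and FABP3 at −1.78, with ACADVL at 0.64. With knockdown 2 were higher: PLIN2, a lipid droplet coat protein, went from 88.0 to 107 CPM to 134 to 163 CPM (log2 fold change 0.59, edgeR adjusted p = 0.00215), and CPT1A, of fatty acid oxidation, had 0.72 (edgeR adjusted p = 0.0148). The median of the PPAR list was −0.35 with 4OHT and −0.02 with knockdown. The part of hypoxia-inducible or PPAR factors in the values of VEGFA and ANGPTL4 was not tested.

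**Figure D4:**
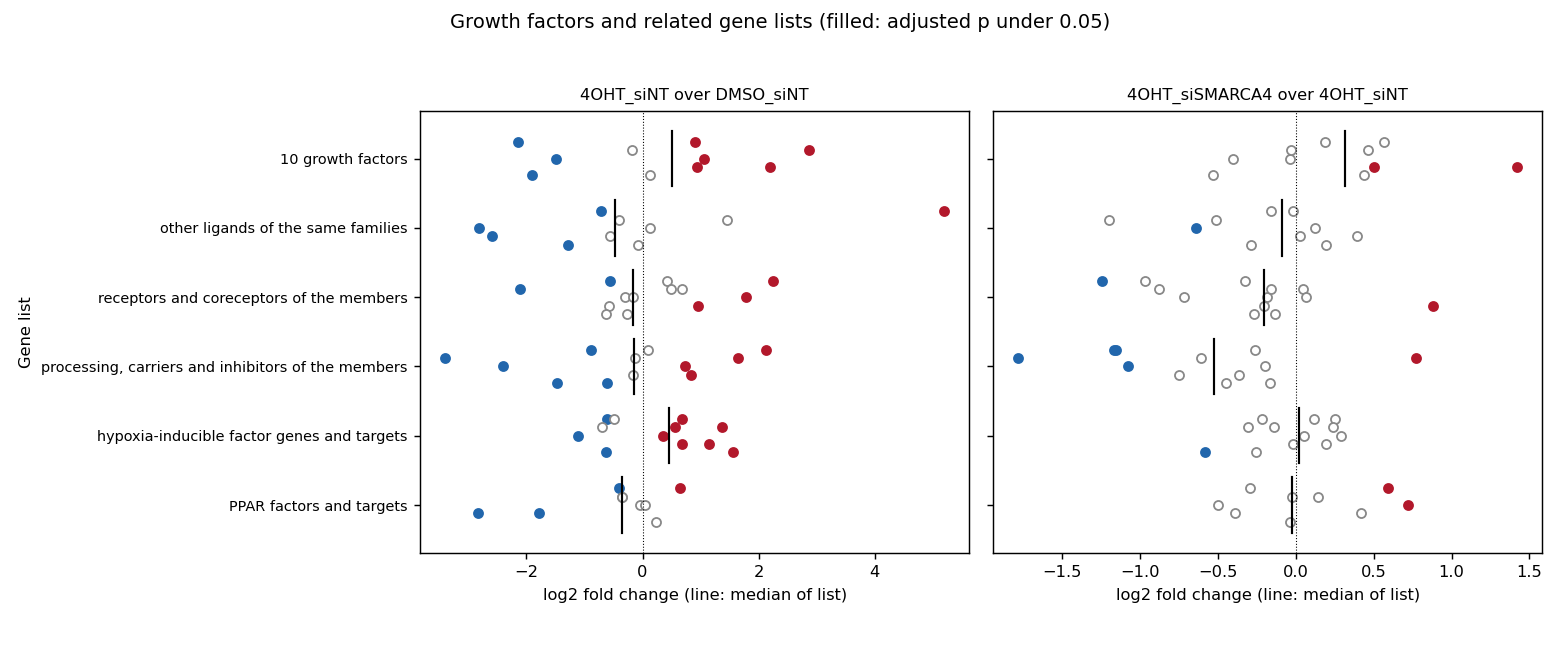
Log2 fold changes (horizontal axes, of different range) of the 10 growth factors and of the tested genes of 5 related lists, 1 point per gene, filled where the edgeR adjusted p was under 0.05 (red higher, blue lower), with a vertical line at the list median. With knockdown, FGF2 at 1.42 is the rightmost point, and the list of processing genes and inhibitors has the lowest median, −0.53.

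For each growth factor, the genes with the nearest pattern over the 18 libraries were found by the root mean square difference of centred log2 CPM. For FGF2 they were the nuclear receptor gene RORA (0.25) and OSGIN2 (0.33), for VEGFA GK (0.18) and IRAK2 (0.19), and for ANGPTL4 the sphingosine kinase gene SPHK1 (0.24) and FZD8 (0.36). EDN1 was nearest to EVA1A (0.31) and NOG (0.33), FGF7 to SH3D19 (0.26) and OXCT1 (0.27), ANGPT1 to ENDOD1 (0.30) and FMN2 (0.31), and HGF to DACH1 (0.27) and LHFPL2 (0.29). VEGFC was nearest to DAGLB (0.17) and CRIP2 (0.17), PGF to ASTN2 (0.36) and COL27A1 (0.37), and PDGFA to APOO (0.21) and GLE1 (0.23). The SD of the members' own log2 CPM was 1.58 for ANGPTL4, 1.22 for VEGFA and 1.02 for FGF2, but 0.34 for PDGFA, whose nearest genes therefore share mainly a small spread. These are descriptions over libraries of the same 3 groups.

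**Figure D5:**
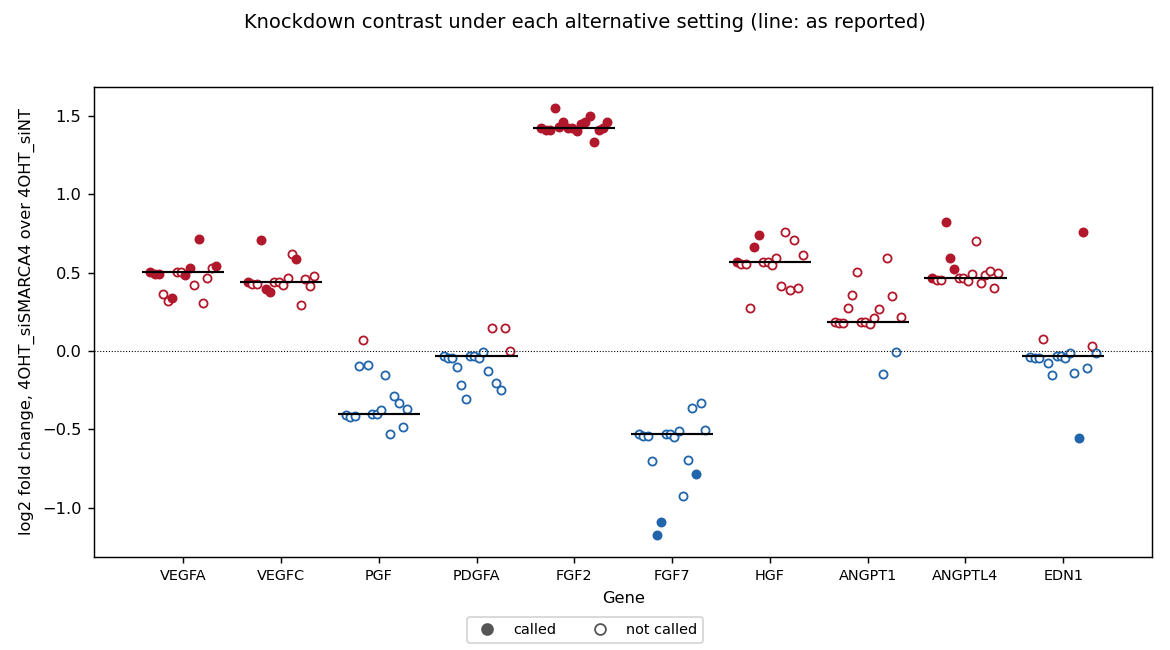
Log2 fold change of each growth factor for 4OHT_siSMARCA4 over 4OHT_siNT (vertical axis) under each of 16 alternative settings of scaling, filter, test, threshold and choice of libraries, filled where called, with a line at the reported value. FGF2 stays between 1.33 and 1.55 and filled in each, VEGFA is filled in 8 of 16, and EDN1 is filled once above and once below 0.

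Over those 16 settings, FGF2 was called in 16, VEGFA in 8, VEGFC in 5, ANGPTL4 in 4, FGF7 and HGF in 3 each and EDN1 in 2 of opposite sign, and PDGFA and ANGPT1 in 0, while PGF was called in 0 of the 15 settings that tested it. The DMSO_siNT library with siNT 4 of set 2V, which had the lowest ANGPT1 and the highest PDGFA of its group, enters the knockdown contrast only through the shared fit, and without it 5 of the 10 were called there, with VEGFC at 0.43, FGF7 at −0.54 and ANGPTL4 at 0.46 added to FGF2 and VEGFA. In that fit 3269 of all genes tested were called, in place of 1397.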

How the data were processed

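The authors deposited a table of whole-number read counts by gene symbol, not normalized, with a column for each lane of each library. Per the methods and labels, strand-specific poly(A) libraries were aligned with STAR 2.7.8a to hg38; the counting program, the annotation and the use of strand are not given in the sources used here. The authors used DESeq2 1.36.0. The 36 columns were summed over 2 lanes to 18 libraries, of which 17 matched 1 of 29 labelled samples. The other samples were not analysed here. The library that fits no title stayed in the group its name gives, outside V and VM, although its column name gives set 1VM. No pair of libraries within a group agreed within sampling noise.

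Genes passed filterByExpr (minimum count 10), which kept 13136 genes, 10 of the 10 growth factors among them. With TMM scaling, 1 quasi-likelihood model (edgeR 4.0.16, R 4.3.3) held all libraries as 3 groups without covariates, and Benjamini-Hochberg adjustment ran over all genes tested. Genes with an adjusted p under 0.05 were called. For siRNA comparisons, group and siRNA number made 6 levels, fitted over 13659 genes. DESeq2 1.42.0 was an alternative, beside scaling, filters, the replicate block, subsets of sets and siRNAs, thresholds and each library left out. V sets alone, VM sets with the unlabelled library and V or VM as a covariate were chosen after seeing the data. The fit of the knockdown contrast was tested on simulated data. The growth factors and lists were chosen with earlier results of these data known. Genes were named by rule: the growth factors, SMARCA4, at most 5 list genes with the smallest adjusted p in a contrast and the 2 genes nearest in pattern to each growth factor. Untested receptors, NUDT6, the FGF7 copies, ANGPT2 with knockdown and the cell type markers were named after their values were seen. Counting intervals are not given, since the spread between libraries was used.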

Additional observations from a re-analysis of the deposited data

Results flagged for a closer look

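PDGFA in 4OHT_siNT had 1 library apart from the rest of its group: siNT 4 of set 3VM at 7.42 CPM, with the other 5 at 3.96 to 5.05 CPM. Its gap to the nearest library was over the critical share of the range for 6 values, which chance exceeds in about 1 of 20 groups, and 33 groups were looked at. Without that library the knockdown log2 fold change of PDGFA was 0.11 in place of −0.03, and it was not called either way.

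EDN1 had effects that differed between the siRNA numbers by DESeq2. The 4OHT effect was larger by 1.07 on the log2 scale, that is less negative, with siNT 2 than with siNT 4 (DESeq2 adjusted p = 0.0245), and the knockdown effect with siRNA 2 minus that with siRNA 4 was −1.43 (DESeq2 adjusted p = 0.00481). By edgeR the same differences had adjusted p-values of 0.0976 and 0.123. Both differences rest on the same 6 libraries of 4OHT_siNT, in which EDN1 was at 12.4 to 16.6 CPM with siNT 2 and at 5.12 to 6.95 CPM with siNT 4. The knockdown difference pairs siNT with siSMARCA4 siRNAs by number alone.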

How the results depend on the processing

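In the contrast of 4OHT_siNT over DMSO_siNT, 6 to 8 of the 10 growth factors were called under the 14 other settings and 8 without each library in turn, and for 4OHT_siSMARCA4 over DMSO_siNT 7 to 8 and 8 to 9. The knockdown contrast moved more, from 2 growth factors and 1397 genes called: VM sets only gave 5 and 2858, 2 groups only 5 and 3405, siNT 2 alone 4 and 2109, siSMARCA4_4 alone 1 and 254, an adjusted p under 0.01 1 and 595, a change over 2-fold 1 and 461, and VM sets with the unlabelled library 6 and 4064, while siNT 4 alone gave 543 genes. Without single libraries the growth factors called ranged from 2 to 5 and the genes from 923 (without the unlabelled library) to 3269 (without DMSO_siNT with siNT 4 of set 2V). A change over 2-fold left 2822 genes for 4OHT_siNT over DMSO_siNT and 2820 for 4OHT_siSMARCA4 over DMSO_siNT, for which V sets only gave 2732. DESeq2 called 1 growth factor, EDN1, in each of the 2 differences between siRNA numbers, and edgeR 0 of them. The causes were not tested.

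Signs turned for VEGFC, PDGFA, PGF, ANGPT1 and EDN1. VEGFC with 4OHT was −0.21 in VM sets, −0.21 with the unlabelled library added and −0.031 with V or VM as a covariate. With knockdown PDGFA was 0.00284 without scaling factors, 0.14 with siNT 2 alone and 0.15 with siSMARCA4_4 alone, and −0.11 to 0.11 without single libraries; against DMSO_siNT it was 0.088 with siNT 2 alone. PGF was 0.073 in VM sets, and ANGPT1 −0.15 with siNT 2 alone and −0.00878 with siSMARCA4_4 alone. EDN1 was 0.76 with siNT 4 alone (called, edgeR adjusted p = 0.0295), −0.55 with siNT 2 alone (called, edgeR adjusted p = 0.0424), 0.031 with siSMARCA4_4 alone, 0.077 with the covariate and −0.18 to 0.15 without single libraries.

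Whether set names pair the libraries could not be decided from the few sets that groups share. Deviations of libraries with the same set name correlated at −0.04 and 0.27 for 4OHT_siNT with DMSO_siNT and at −0.05 and 0.16 for 4OHT_siSMARCA4 with 4OHT_siNT. For 4OHT_siSMARCA4 with DMSO_siNT the values were −0.23, −0.07 and 0.15. With the set as a replicate block, 4356 genes were called for 4OHT_siNT over DMSO_siNT and 236, with 1 growth factor (FGF2), for knockdown, where VEGFA had 0.42 (edgeR adjusted p = 0.324). VEGFC with 4OHT was −0.075 and PGF 0.98 (edgeR adjusted p = 0.0754) in that fit, and VEGFC over DMSO_siNT in knockdown cells was 0.54 (edgeR adjusted p = 0.0720).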
